A study of Mus musculus with 2 samples.

Results

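The genes described here encode the proteins of the mitochondrial ribosome. They were taken from the deposited table as every row whose gene name starts with Mrpl or Mrps followed by a digit, and the values of the rows of a name were summed. This gave 118 rows and 75 genes of 30649 gene names in the table, 46 of them Mrpl genes, named for the large subunit, and 29 Mrps genes, named for the small subunit. All 75 reached 1 FPKM (fragments per kilobase of transcript, scaled by the library's mapped reads) in at least 1 library, none was listed at 0, and all were compared. The rule uses gene names and no measured value, though it was set with earlier results of these data known.

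Taf7l KO mice lack Taf7l, the gene of a paralog of the TFIID subunit TAF7, and were compared with wild-type (WT) mice, both on the C57BL/6 background. Interscapular brown adipose tissue (BAT) was taken, and equal amounts of RNA from 6 mice were pooled per genotype before the library was made, so there is 1 mRNA-seq library for Taf7l KO BAT and 1 for WT BAT. The labels state an age of 1 month for both pools, but another field of the KO label states 3 months. With 1 pool per genotype no test between genotypes was possible, the spread between pools is unknown, and age and genotype cannot be told apart if the second field is right.

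The mitochondrial ribosome translates the few proteins encoded by mitochondrial DNA, all of them parts of the respiratory chain and the ATP synthase. Its RNAs come from mitochondrial DNA, whereas every one of its proteins is made in the cytosol from nuclear genes and imported. Brown fat cells are rich in mitochondria, which burn fuel for heat, and so need this ribosome to supply the core of their respiratory complexes.

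Mitochondrial ribosomal protein genes were lower in Taf7l KO BAT as a set, by a modest amount. The KO level was below the WT level in 65 of 75 members, or 86.7%, against 49.2% of the 12171 genes compared. The median log2 ratio, taken as log2((KO + 0.1)/(WT + 0.1)) of FPKM, was -0.32 in the members, a KO level 0.798 times that of WT, and 0.010 in all genes compared. At least 1.5-fold lower were 20 members (26.7%), against 12.7% of all genes compared. At least 1.5-fold higher was 1 member (1.33%), Mrps2, against 16.5% of all genes. No member differed by the 3-fold that the study used as its threshold, which 0.403% of all genes passed toward lower and 2.05% toward higher values. These shares describe 2 libraries, and genes are not replicates. In bulk tissue, fewer cells of a type and less RNA per cell cannot be told apart.

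The summed level of the 75 genes was 5148 FPKM in Taf7l KO BAT and 6557 FPKM in WT BAT, 0.785 times as much in KO. The large subunit genes summed to 3485 FPKM in KO against 4501 FPKM in WT, a ratio of 0.774, and the small subunit genes to 1663 FPKM in KO against 2055 FPKM in WT, a ratio of 0.809. Large subunit genes thus made up 67.7% of the member FPKM in KO and 68.7% in WT. A single row bears on these sums. Mrpl52, a large subunit protein found only in mitochondria, stood at 739 FPKM in KO against 675 FPKM in WT, of which 88.5% in KO and 87.7% in WT lay in a row that spans only 199 bp. When rows under 200 bp were left out, Mrpl52 stood at 85.0 FPKM in KO against 83.1 FPKM in WT, and the ratio of the large subunit sums was 0.724.

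mRNA levels per length were spread widely for proteins of a single particle. They ran from 4.93 FPKM for Mrpl19 to 739 FPKM for Mrpl52 in KO, with a median of 52.0 FPKM, and from 6.42 FPKM to 675 FPKM for the same genes in WT, with a median of 62.9 FPKM. More than 100 FPKM was reached by 8 members in KO and by 16 in WT. The top value rests on the Mrpl52 row of 199 bp. With rows under 200 bp left out, Mrpl30 (275 FPKM) was highest in KO and Mrpl12 (475 FPKM) in WT. The order of levels was much alike in the libraries, with a Spearman correlation of 0.938 across the 75 genes, close to the 0.928 across all genes compared, so it is nothing particular to this set.
Next to Mrpl52, the highest large subunit genes by the mean of the 2 libraries were Mrpl12 (238 FPKM in KO, 475 FPKM in WT), Mrpl30 (275 FPKM in KO, 409 FPKM in WT), Mrpl33 (144 FPKM in KO, 237 FPKM in WT), Mrpl34 (172 FPKM in KO, 184 FPKM in WT) and Mrpl20 (99.5 FPKM in KO, 191 FPKM in WT). All 5 have counterparts in the bacterial ribosome. Mrpl12 was the second highest member in WT and the third in KO, where Mrpl30 passed it.
By the mean of the 2 libraries, the highest small subunit genes were Mrps21 (194 FPKM in KO, 219 FPKM in WT), Mrps36 (176 FPKM in KO, 237 FPKM in WT), Mrps16 (168 FPKM in KO, 217 FPKM in WT), Mrps18c (72.2 FPKM in KO, 102 FPKM in WT), Mrps24 (67.8 FPKM in KO, 105 FPKM in WT) and Mrps35 (69.4 FPKM in KO, 103 FPKM in WT). In KO alone, Mrps18a (78.4 FPKM) and Mrps18b (74.1 FPKM) were above the last 3 of these. Mrps36 carries a ribosomal name, but its protein is now known as a subunit of the 2-oxoglutarate dehydrogenase complex. Of these 6 genes only Mrps24 was lower by 1.5-fold, with a log2 ratio of -0.63.

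**Figure D1:**
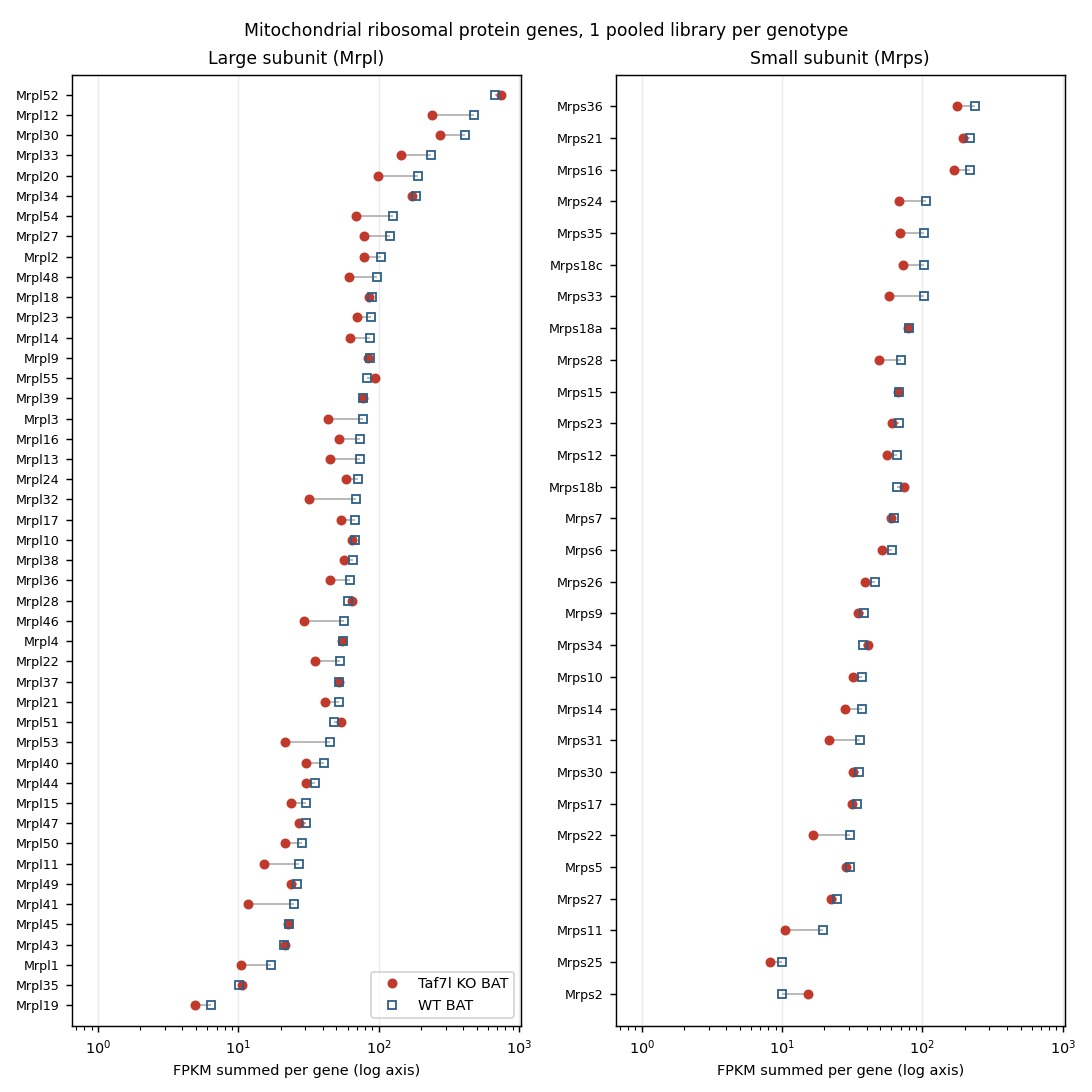
FPKM of each Mrpl gene (left) and Mrps gene (right) on a log axis, ordered by WT level, with filled circles for Taf7l KO BAT and open squares for WT BAT, 1 pooled library each. KO lies left of WT in 65 of 75 genes, and Mrpl52 is highest in both libraries, mostly through a row that spans only 199 bp.

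The lowest KO to WT ratios were found in the large subunit. Mrpl32 (chromosome 13 of GRCm38, GENCODE M21, 14608184 to 14613165) stood at 31.9 FPKM in Taf7l KO BAT and 69.1 FPKM in WT BAT, a KO level 0.461 times that of WT. Its protein has a bacterial counterpart and is cut to its mature form by the m-AAA protease of the mitochondrial inner membrane before it joins the ribosome. Mrpl41, specific to mitochondria, had 11.6 FPKM in KO against 24.8 FPKM in WT, and Mrpl53, also specific to mitochondria, 21.6 FPKM in KO against 45.2 FPKM in WT. These were the 3 members at least 2-fold lower, against 2.79% of all genes compared, and no member was 2-fold higher, against 5.99%.
Mrpl12 (chromosome 11, 120484613 to 120489065), at 0.501 times its WT level, was just short of that. Its protein forms the flexible stalk that recruits translation factors, and it is also known to bind the mitochondrial RNA polymerase. The other stalk proteins differed from each other. Mrpl11 at the stalk base had 15.3 FPKM in KO against 26.9 FPKM in WT, a log2 ratio of -0.81, whereas Mrpl10, which anchors the Mrpl12 copies, had 64.5 FPKM in KO against 67.6 FPKM in WT, a log2 ratio of -0.07.
Mrpl20 had a log2 ratio of -0.94. Mrpl46, of the central protuberance, the knob at the top of the large subunit, had 29.6 FPKM in KO against 56.5 FPKM in WT. For this knob 6 members were listed, which need not be all of them. All 6 were below their WT level, with a median log2 ratio of -0.53. Mrpl48 (log2 ratio -0.66) and Mrpl27 (-0.63) were lower by 1.5-fold as well, while Mrpl40 (-0.42), Mrpl38 (-0.22) and Mrpl18 (-0.07) were not. Once centred on genes of like length and GC content, only 1 of the 6, Mrpl46, was lower by 1.5-fold.
Of 5 members around the exit of the tunnel through which the new chain leaves, Mrpl22 alone was lower by 1.5-fold, with 34.9 FPKM in KO against 52.6 FPKM in WT. Mrpl23 (log2 ratio -0.32), Mrpl24 (-0.29), Mrpl44 (-0.21) and Mrpl45 (-0.04) were within 1.5-fold. The remaining large subunit members at least 1.5-fold lower were Mrpl54 (log2 ratio -0.86), Mrpl3 (-0.81), Mrpl33 (-0.72), Mrpl1 (-0.71) and Mrpl13 (-0.69).

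In the small subunit, 5 members were at least 1.5-fold lower. Mrps11, with a bacterial counterpart, had 10.48 FPKM in Taf7l KO BAT and 19.7 FPKM in WT BAT, a KO level 0.533 times that of WT. Mrps22, specific to mitochondria, had 16.7 FPKM in KO against 30.5 FPKM in WT. Mrps33 had 57.8 FPKM in KO against 102 FPKM in WT, and Mrps31 21.8 FPKM in KO against 35.7 FPKM in WT, both also specific to mitochondria. Mrps24 was the fifth.
Mrps2 (chromosome 2, 28468066 to 28471178), a bacterial-type protein of the small subunit, went the other way, with 15.4 FPKM in KO against 10.02 FPKM in WT, 1.54 times the WT level. All 3 of its rows had log2 ratios between 0.60 and 0.61, but each spans 3218 bp, and they are no independent values. With a pseudocount of 1 FPKM, or after centring on genes of like level, Mrps2 was no longer past 1.5-fold.
The other members with the highest ratios lay close to their WT level. Mrpl55 had 94.1 FPKM in KO against 82.8 FPKM in WT, Mrps18b 74.1 FPKM in KO against 65.7 FPKM in WT, and Mrpl51 53.7 FPKM in KO against 47.8 FPKM in WT. Mrps34 (40.8 FPKM in KO, 37.7 FPKM in WT), Mrpl28 (64.1 FPKM in KO, 60.01 FPKM in WT) and Mrpl35 (10.7 FPKM in KO, 10.1 FPKM in WT) differed by less. In all, 34 of 75 members (45.3%) were within 1.2-fold of their WT level, against 36.7% of all genes compared.

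Large subunit genes had the lower ratios. Of 46 Mrpl genes, 15 (32.6%) were at least 1.5-fold lower and none was higher, with a median log2 ratio of -0.37. Of 29 Mrps genes, 5 (17.2%) were at least 1.5-fold lower and 1 was higher, with a median of -0.23. Of all genes compared, 12.7% were lower and 16.5% higher. After centring on genes of like length and GC content, 9 of 44 Mrpl and 4 of 29 Mrps genes were lower, against 8.57% of all genes so centred. The difference between the medians was -0.14, small beside the spread within each subunit, whose middle 50% of genes ran from -0.68 to -0.07 in Mrpl and from -0.50 to -0.11 in Mrps.
Some names do not match a protein's place. Mrps30 and Mrps18a sit in the large subunit, and Mrps30 had 32.2 FPKM in KO against 35.6 FPKM in WT. Counted by place, with Mrps36 left out, the medians were -0.36 for 48 large subunit genes and -0.24 for 26 small subunit genes.
Mrps18a, Mrps18b and Mrps18c are paralogs of the bacterial protein S18. Mrps18a had 78.4 FPKM in KO against 80.7 FPKM in WT, and with the values above their log2 ratios were -0.04, 0.17 and -0.50. Reads from stretches shared by paralogs could not be separated here.
Proteins with bacterial counterparts were at least 1.5-fold lower in 12 of 45 genes (26.7%), and proteins classed as specific to mitochondria in 8 of 29 genes (27.6%). The share of all genes compared was 12.7%. The median log2 ratios of the 2 classes were -0.37 and -0.21. After centring on genes of like length and GC content, 7 of 45 and 6 of 27 were lower, against 8.57% of all genes so centred. Mrps18a and Mrps18b were counted in the second class, although both are paralogs of the bacterial S18. Within the large subunit the medians were -0.40 for 29 bacterial-type genes and -0.14 for 19 mitochondria-specific genes. Within the small subunit they were -0.23 for 16 and -0.27 for 10 genes.

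**Figure D2:**
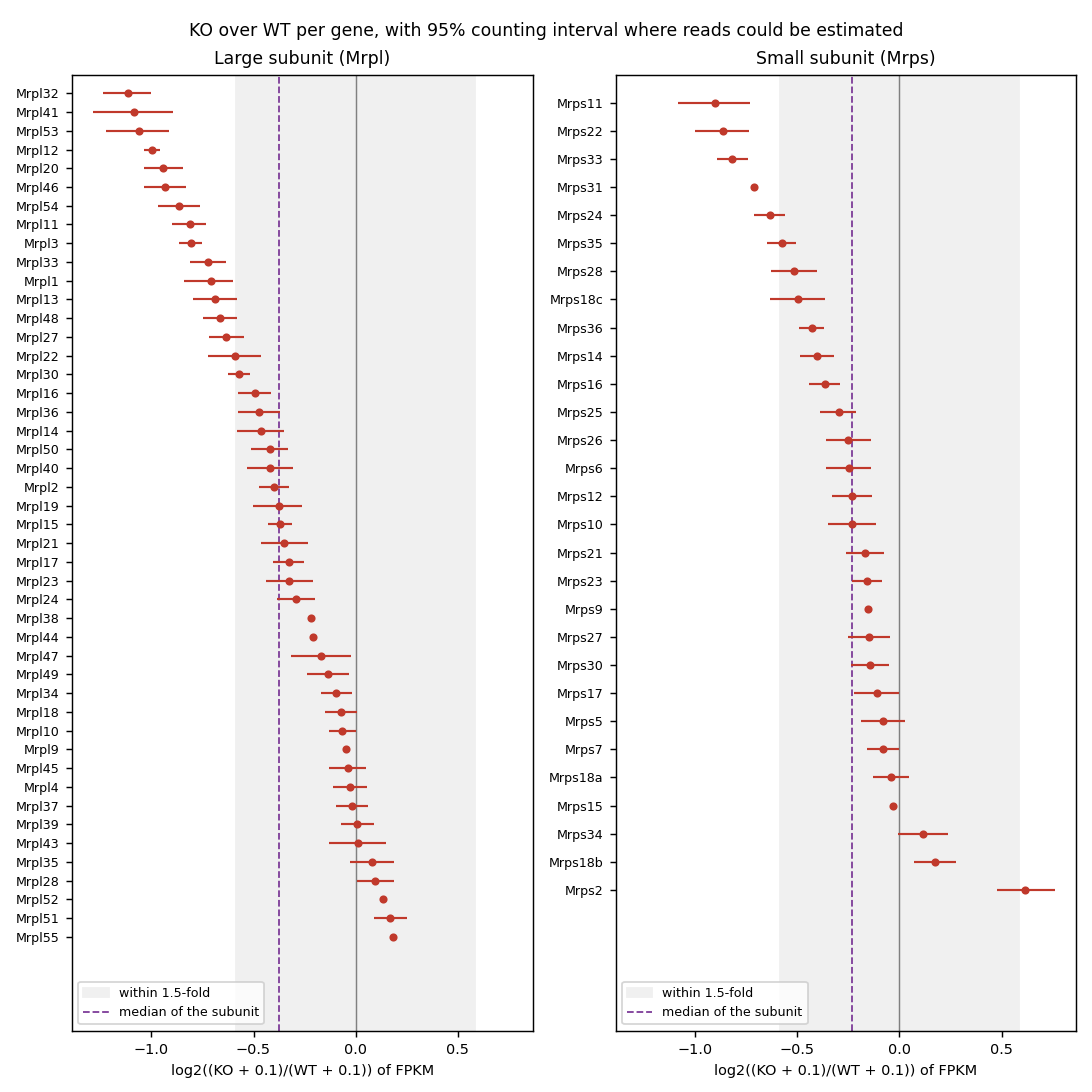
Log2 ratio of Taf7l KO over WT BAT for each Mrpl gene (left) and Mrps gene (right), with 95% exact binomial intervals on estimated reads where these could be had, the range within 1.5-fold shaded and the median of each subunit dashed. The ratios form a continuous slope from Mrpl32 and Mrps11 at the low end to Mrpl55 and Mrps2 at the high end.

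The members' ratios spread more than counting error at the estimated depth. Reads were estimated from FPKM, transcript length and a depth of 78618421 mapped reads for Taf7l KO BAT and 25958291 for WT BAT, itself estimated from the steps of low FPKM values. The KO estimate is above the read yield given in the labels, so the widths of the intervals are uncertain. For 67 members with such an estimate, reads ran from 526 to 14020 in KO and from 370 to 9241 in WT. The 95% exact binomial interval of the fold, which covers counting error only, lay below 1 in 53 members, above 1 in 4 and spanned 1 in 10. Set against the members' own median fold of 0.798, the interval lay wholly below in 29 members and wholly above in 24. The fold of Mrpl12 had an interval of 0.488 to 0.514, that of Mrpl32 one of 0.425 to 0.5002 and that of Mrps2 one of 1.39 to 1.70. The intervals leave out the spread between pools.
Rows of a gene had like ratios, but they can share reads and so are no independent values. In 30 members with several rows, the largest gap between the log2 ratios of rows of a gene was 0.25, in Mrps9, and the median gap was 0.043. In 27 of the 30, all rows lay on the same side of 0.

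The gene lists that act with this ribosome had medians on both sides of 0. Of 7 mitoribosomal proteins with other names, all were below their WT level, with a median log2 ratio of -0.39. At least 1.5-fold lower were 3 (42.9%), against 12.7% of all genes compared. Chchd1, a small subunit protein, had 88.6 FPKM in Taf7l KO BAT and 204 FPKM in WT BAT, a lower ratio than any member's. Aurkaip1, also of the small subunit, had 132 FPKM in KO against 231 FPKM in WT. Ict1, a peptide release factor built into the large subunit, had 46.5 FPKM in KO against 60.2 FPKM in WT. The third gene lower by 1.5-fold was Gadd45gip1, of the large subunit, with 19.0 FPKM in KO against 33.5 FPKM in WT.
Of 16 assembly and ribosomal RNA modification factors, 4 (25%) were at least 1.5-fold lower and none higher, with a median of -0.21. The shares of all genes compared were 12.7% and 16.5%. Only 11 of the 16 could be centred on genes of like length and GC content. Of these 11, 1 was then lower, against 8.57% of all genes so centred. Mtg1, a GTPase of large subunit assembly, had 24.3 FPKM in KO against 28.6 FPKM in WT, and Eral1, which binds the small ribosomal RNA, 22.4 FPKM in KO against 23.5 FPKM in WT. Mterfd1 (14.8 FPKM in KO, 25.5 FPKM in WT) was among the 4, as was Fastkd2 (5.02 FPKM in KO, 10.1 FPKM in WT).
Translation factors were not lower as a list, with a median of 0.00. At least 1.5-fold lower were 0 of 13 genes, against 12.7% of all genes compared, and 1 (7.69%) was higher, against 16.5%. Once centred on genes of like length and GC content, 0 of 11 were past 1.5-fold either way. Tufm, the elongation factor that brings tRNAs to the ribosome, had 123 FPKM in KO against 81.0 FPKM in WT. Its exchange factor Tsfm had 35.3 FPKM in KO against 26.1 FPKM in WT, and the translocation factor Gfm1 37.3 FPKM in KO against 34.3 FPKM in WT.
Of 17 mitochondrial tRNA synthetases, which load tRNAs with amino acids, 3 (17.6%) were at least 1.5-fold lower and none higher, with a median of -0.21. Among all genes compared, 12.7% were lower and 16.5% higher. Lars2 had 475 FPKM in KO against 413 FPKM in WT, Iars2 80.5 FPKM in KO against 59.6 FPKM in WT, and Fars2 30.2 FPKM in KO against 35.3 FPKM in WT. The 3 lower genes were Nars2 (log2 ratio -0.89), Yars2 (-0.78) and Mars2 (-0.59). After centring on genes of like length and GC content, 3 of 15 were lower, against 8.57% of all genes so centred. These were Nars2 (-0.84), Yars2 (-0.79) and Fars2 (-0.63), while Mars2 stood at -0.13.
Genes that serve the copying and expression of mitochondrial DNA, or regulate nuclear genes for it, had a median of 0.28. Of these 11 genes, 0 were at least 1.5-fold lower, against 12.7% of all genes compared, and 3 (27.3%) were higher, against 16.5%. Polrmt, the mitochondrial RNA polymerase, had 9.69 FPKM in KO against 4.19 FPKM in WT, a log2 ratio of 1.19 that became 0.52, within 1.5-fold, once centred on genes of like length and GC content. Elac2, also higher, went from 0.83 to 0.55, within 1.5-fold, while Gabpb1 went from 0.59 to 0.91. With a centred value for only 8 of the 11, under the 80% required, the list could not be centred as a whole. Tfb2m had 24.3 FPKM in KO against 27.5 FPKM in WT, Ssbp1 18.8 FPKM in KO against 20.4 FPKM in WT, and Gabpa, a regulator of nuclear genes for mitochondria, 12.0 FPKM in KO against 14.4 FPKM in WT.

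**Figure D3:**
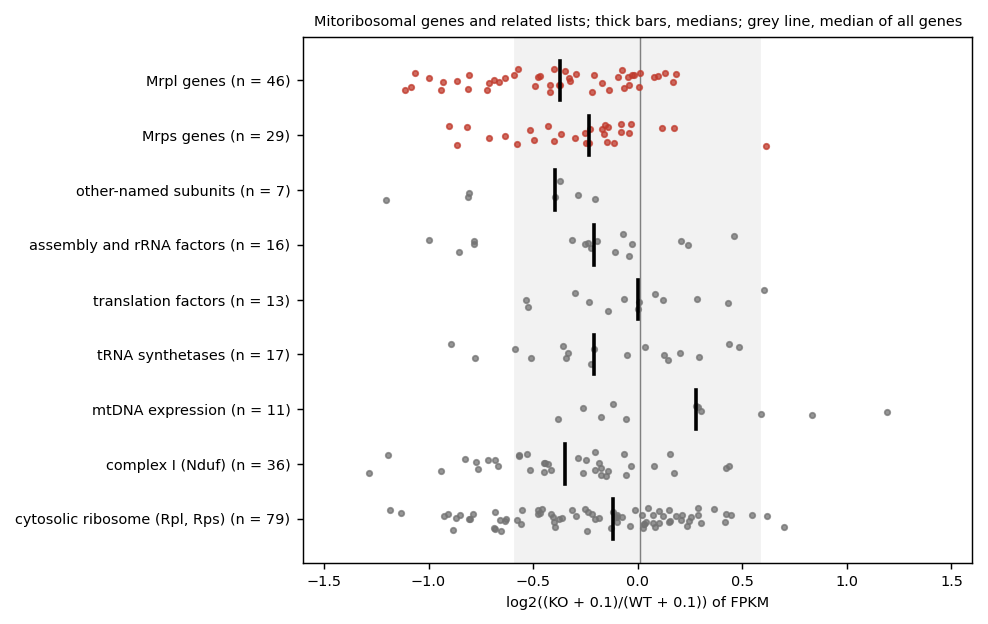
Log2 ratio of Taf7l KO over WT BAT for single genes (points) of the members and related lists, with thick bars at list medians, a grey line at the median of all genes compared and the range within 1.5-fold shaded. Mrpl, Mrps, other-named subunits and complex I genes have medians of -0.37, -0.23, -0.39 and -0.35, translation factors of 0.00, and 1 cytosolic gene, Rpl3l, lies beyond the axis.

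Complex I, some of whose membrane subunits this ribosome makes, had a nuclear gene median near that of the members. Of 36 genes with Nduf names, 9 (25%) were at least 1.5-fold lower and none higher, with a median of -0.35. The shares of all genes compared were 12.7% and 16.5%. Centred on genes of like length and GC content, 4 of 35 Nduf genes were lower and 1 was higher, with a median of -0.24. Among all genes so centred, 8.57% were lower and 10.6% higher. Among the 9 were Ndufa4 and Ndufa12l, an assembly factor, and without these, 7 of 34 were lower, with a median of -0.27. Ndufa4, now assigned to complex IV in mammals, had 2296 FPKM in Taf7l KO BAT and 3893 FPKM in WT BAT, Ndufb8 1525 FPKM in KO against 2607 FPKM in WT, and Ndufb9 1201 FPKM in KO against 1636 FPKM in WT. The median complex I gene stood at 479 FPKM in KO, against 52.0 FPKM for the median member, so mRNAs of the ribosome were the scarcer ones.
Of 79 genes of the cytosolic ribosome, 17 (21.5%) were at least 1.5-fold lower and 3 (3.80%) higher, with a median of -0.12. Among all genes compared, 12.7% were lower and 16.5% higher. Once centred on genes of like length and GC content, 10 of 76 cytosolic ribosome genes were lower and 3 higher. Rplp2 had 1304 FPKM in KO against 1069 FPKM in WT, Rps12 1094 FPKM in KO against 1021 FPKM in WT, and Rplp1 956 FPKM in KO against 1100 FPKM in WT. Rpl3l, a form known from skeletal muscle, had a log2 ratio of 4.84.
Transcripts of mitochondrial DNA itself, the templates of the ribosome, showed no common direction. Among 11 rows on the mitochondrial chromosome, 2 were at least 1.5-fold lower and 1 higher. Of all genes compared, 12.7% were lower and 16.5% higher. The row named Cox2 had a log2 ratio of -0.10, that named Atpase6 0.09 and that named mt-Nd4 0.64. Rows of this chromosome can overlap each other, and most carry no gene symbol.

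Short transcripts and transcripts poor in G and C were lower in Taf7l KO BAT throughout the table, and mitoribosomal transcripts are mostly short. A length and GC content could be assigned to 73 of 75 members and 7607 of the genes compared. The median length was 1029 bases in the members and 2276 in all genes, and the median GC content was 50.5% and 51.0%. In the shortest 10% of all these genes the median log2 ratio was -0.18, and 46 of 73 members fell in the shortest 20%. In the 20% of genes with the lowest GC content the median was -0.35, and in the 20% with the highest it was 0.36. Across the 73 members, Spearman's rho of the log2 ratio was 0.31 with length and 0.18 with GC content, against 0.15 and 0.44 across all genes, as a description over genes that share 2 libraries.
After each log2 ratio was centred on genes of like length and GC content, the member median was -0.20, that of Mrpl -0.33 and that of Mrps -0.11. Then 58 of 73 members were below 0, 13 were at least 1.5-fold lower, against 8.57% of all genes so centred, and 1 was higher, against 10.6%. All 13 were among the 20 lower before. They were Mrpl12 (centred log2 ratio -0.96), Mrpl41 (-0.93), Mrpl53 (-0.91), Mrpl11 (-0.89), Mrps11 (-0.87), Mrpl3 (-0.86), Mrpl54 (-0.85), Mrpl46 (-0.82), Mrpl32 (-0.79), Mrpl20 (-0.71), Mrps22 (-0.66), Mrps33 (-0.61) and Mrps24 (-0.60). Mrps2 stood at 0.67.

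**Figure D4:**
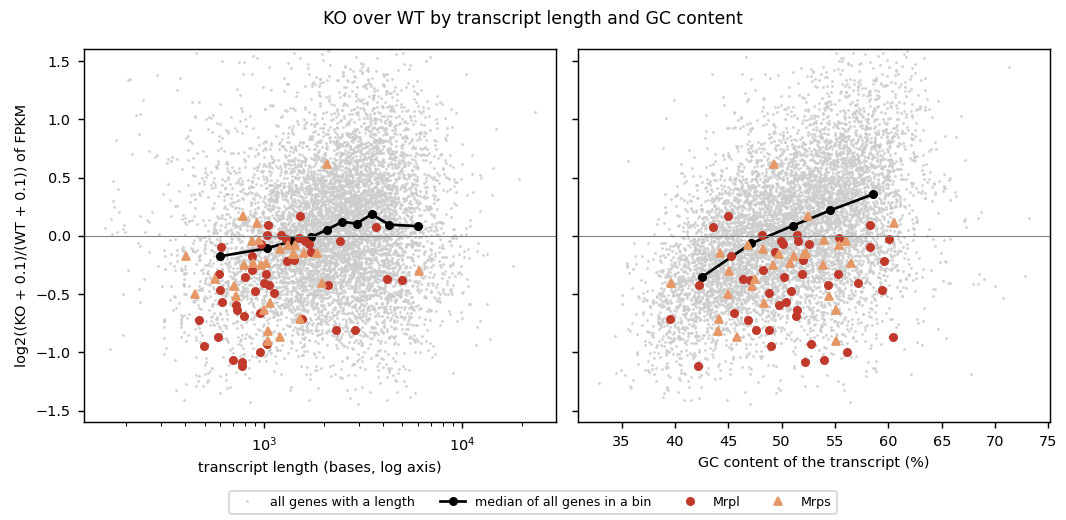
Log2 ratio of Taf7l KO over WT BAT against transcript length (left, log axis) and GC content (right) for all genes with a length (grey), their medians in 10 bins of length and 5 of GC content (black), Mrpl genes (red circles) and Mrps genes (orange triangles). Points beyond 1.6 in either direction are not drawn, and most members lie at short lengths and below the black line.

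Members are scattered over 17 chromosomes, with at most 10 on any of them, and none is on the X chromosome, which carries Taf7l. Mrpl46 and Mrps11 lie head to head on chromosome 7 of GRCm38, Mrpl46 on the minus strand (GENCODE M21, 78775236 to 78783531) and Mrps11 on the plus strand (78783119 to 78792989), with RefSeq starts 42 bp apart. They had log2 ratios of -0.93 and -0.90, nearly the same for the large and the small subunit gene. Their annotated exons overlap by 173 bp, and the authors' mapping and FPKM estimation ran with default settings for strand, under which reads from the overlap cannot be assigned by strand.
Of 66 members with a promoter entry in RefSeq, 25 had a gene starting on the other strand within 1000 bp upstream, and in 20 members this neighbour was no member and could be compared. The neighbours had a median log2 ratio of 0.22, against -0.20 for those 20 members, and the neighbour's ratio was higher in 15 of the 20. None of the 20 neighbours was at least 1.5-fold lower, against 12.7% of all genes compared. At least 1.5-fold higher were 4 of the 20, against 16.5% of all genes. The ratios of members and neighbours were not centred on length or GC content. Next to Mrpl32, the proteasome gene Psma2 starts 205 bp away and had 93.7 FPKM in Taf7l KO BAT and 117 FPKM in WT BAT, a log2 ratio of -0.32. Next to Mrpl14, Tmem63b starts 131 bp away and had 14.6 FPKM in KO against 6.95 FPKM in WT. Next to Mrpl47, the complex I gene Ndufb5 starts 308 bp away and had 405 FPKM in KO against 460 FPKM in WT, log2 ratios being -0.17 for Mrpl47 and -0.18 for Ndufb5. These 20 pairs of values thus ranged from nearly equal to wide apart.

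**Figure D5:**
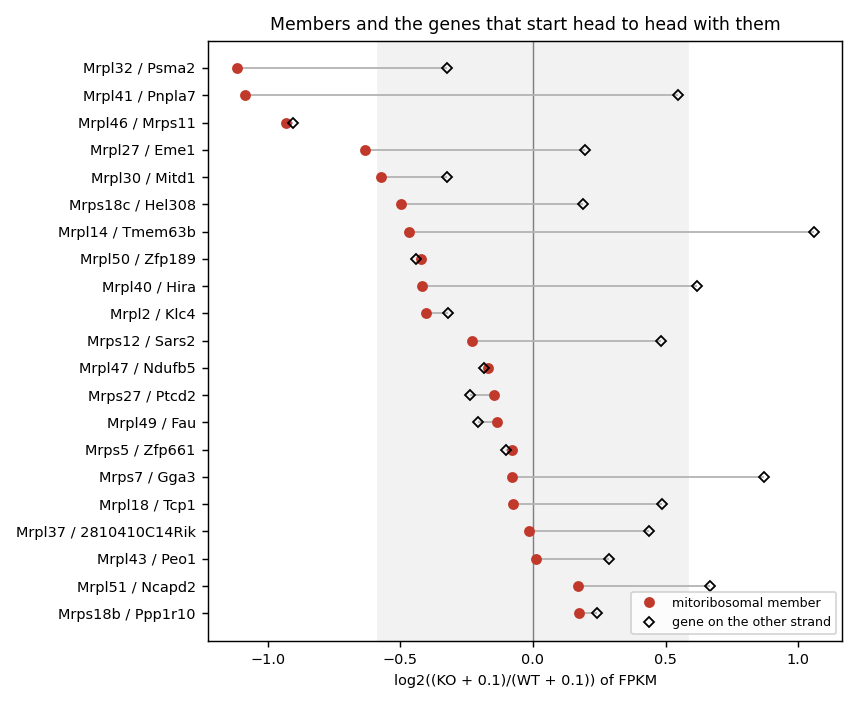
Log2 ratio of Taf7l KO over WT BAT for members (red circles) and the gene that starts on the opposite strand within 1000 bp (open diamonds), 21 pairs ordered by the member's ratio, with the range within 1.5-fold shaded. Mrpl46 and Mrps11 coincide near -0.9, whereas Mrpl41, Mrpl14, Mrps7 and Mrpl40 lie far below their neighbours.

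Regions around the start of some members with low ratios and of Mrps2, the highest, are shown (RefSeq, GRCm38.p6, each read 5′ to 3′). Capitals mark 3 motifs on either strand, the NRF1 core GCATGCGC, the ETS motif CCGGAAG and the YY1 motif AAGATGGC. NRF1, ETS-family factors such as GABPA, and YY1 are known for binding promoters of nuclear genes for mitochondria. The first sequence is the whole stretch between the RefSeq starts of Mrpl46 and Mrps11 (chr7:78783090-78783130, plus strand), where none of the 3 motifs occurs. A YY1 motif lies outside that piece, 107 bases before the RefSeq start of Mrps11, in an Mrpl46 exon. The Mrpl32 stretch begins 87 bases before the RefSeq start (chr13:14613095-14613124, minus strand) and the Mrpl53 stretch 59 bases before it (chr6:83109049-83109078, plus strand). For Mrps22 (chr9:98601680-98601799, minus strand), Mrpl41 (chr2:24975099-24975218, minus strand) and Mrps2 (chr2:28467946-28468065, plus strand) the 120 bases before the RefSeq start are given, and these 3 hold no annotated exon. In GENCODE M21, where Mrpl32 and Mrpl53 start further upstream, all 30 bases of their stretches lie in exons, of Mrpl32 itself for the first and of Mrpl53, Ccdc142os and Gm42688 for the second. Of the stretch between Mrpl46 and Mrps11, 12 bases lie in an Mrps11 exon.
Mrpl46-Mrps11: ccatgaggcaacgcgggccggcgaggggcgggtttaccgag
Mrpl32: GCGCATGCGCaagaggggcctGCGCATGCt
Mrpl53: CCGGAAGcggtccgttccaataaaccgatc
Mrps22: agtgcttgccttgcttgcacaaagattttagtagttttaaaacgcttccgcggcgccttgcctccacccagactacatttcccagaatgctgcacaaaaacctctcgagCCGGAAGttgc
Mrpl41: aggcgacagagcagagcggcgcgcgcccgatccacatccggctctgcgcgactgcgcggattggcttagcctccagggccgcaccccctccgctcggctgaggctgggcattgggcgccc
Mrps2: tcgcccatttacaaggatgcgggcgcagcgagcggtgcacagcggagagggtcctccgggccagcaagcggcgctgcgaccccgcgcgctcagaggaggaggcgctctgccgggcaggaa
Mrpl32 carries the NRF1 core on both strands, Mrpl53 and Mrps22 carry the ETS motif, and the stretches of Mrpl41, among the lowest ratios, and of Mrps2, the highest, hold none of the motifs. Of high members not shown, Mrpl51, Mrpl52, Mrps18b and Mrpl35 hold a motif in the window counted below, and Mrpl28 and Mrpl55 hold none.
Motifs were counted in windows of 250 bases before to 50 after the start. The NRF1 core was found in 12.1% of the 66 member promoters, in 6.26% of those of genes compared and in 3.05% of all RefSeq promoters of this window. The ETS motif was found in 36.4% of member promoters, 21.2% of those of genes compared and 9.93% of all, and the YY1 motif in 16.7% of member promoters, 5.61% of those of genes compared and 3.19% of all. Members with and without the NRF1 core had median log2 ratios of -0.20 and -0.30, members with and without the ETS motif -0.29 and -0.30, and members with and without the YY1 motif -0.15 and -0.32. A match is a match of letters and no sign of binding.

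Markers of cell types also differed between the libraries. Taf7l stood at 0.00734 FPKM in Taf7l KO BAT and 0.0222 FPKM in WT BAT, too low to check the labels. Of 8 brown fat markers none was at 0 and 6 were at least 1.5-fold lower, against 12.7% of all genes compared. The 8 summed to 6447 FPKM in KO against 14650 FPKM in WT. Ucp1, the uncoupling protein, had 1639 FPKM in KO against 3720 FPKM in WT, Cox8b 2370 FPKM in KO against 5937 FPKM in WT, and Cox7a1 1426 FPKM in KO against 3389 FPKM in WT. The list's 1 marker above its WT level was Prdm16, whose protein helps to fix the fate of brown fat cells, with 2.003 FPKM in KO against 1.304 FPKM in WT and a log2 ratio of 0.58. Markers of all fat cells gave 10713 FPKM in KO against 19657 FPKM in WT for Fabp4, 2078 FPKM in KO against 1863 FPKM in WT for Cfd, and 968 FPKM in KO against 1227 FPKM in WT for Adipoq. All 10 skeletal muscle markers were at least 3-fold higher, against 2.05% of all genes compared. The 10 summed to 1855 FPKM in KO against 107 FPKM in WT, with the lowest, Myh1, at 12.5 FPKM in KO against 0.199 FPKM in WT. Acta1 had 348 FPKM in KO against 9.92 FPKM in WT, Tnnc2 248 FPKM in KO against 7.88 FPKM in WT, and Tnnt3 244 FPKM in KO against 10.9 FPKM in WT. The endothelial markers Pecam1, Cdh5 and Kdr had log2 ratios between 0.02 and 0.31, and the macrophage markers Cd68, Csf1r and Emr1 between -0.16 and 0.76. Muscle has mitochondrial ribosomes of its own, and the part of these cell types in the values of the members was not tested.
Exons of 9 members overlap exons of another annotated gene over at least 20% of their length. They include Mrpl53, with 88.0% of its exon bases in a read-through annotation, Mrps25, with 69.8% in Nr2c2, and Mrps34, with 63.4% in Mapk8ip3. Without these 9 members, 19 of the others were at least 1.5-fold lower and the member median was -0.34.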

How the data were processed

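BAT mRNA-seq of 1 pooled library per genotype was used. The authors mapped reads of 50 bp with TopHat 1.4.0 and deposited FPKM per UCSC transcript, made with Cufflinks 1.3.0 with 1 likelihood iteration. Bowtie and the build mm10 are also named in the submitters' processing notes, but only 7 of 75 members start within 1000 bp of their GRCm38 place, so positions printed here are from GENCODE M21 or RefSeq on GRCm38. Rows were summed by gene name. Comparison was limited to the 12171 genes that reached 1 FPKM in either library, with a pseudocount of 0.1 FPKM, a scale that understates changes of low genes. Scripts ran under Python 3.11.15 with scipy 1.17.1, numpy 2.4.6, pandas 2.3.3 and matplotlib 3.10.9.

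Lengths and GC content are those of the protein-coding GENCODE transcript nearest in span to a gene's main row. Where the row was shorter than that transcript, the difference in genomic span was taken off the length. In 37 members the spans differed by more than 30 bp. The centred values and the counting intervals rest on these approximate lengths. For centring, genes were split into 10 bins of length and 5 of GC content within each. Depth was estimated from low values of 1049 single-exon genes, assuming fragments of 200 bp with an SD of 80 bp. At that depth 77.9% of 68 low values in KO and 75.4% of 114 in WT were whole read numbers, to within 0.05. The KO estimate exceeds the read yield that the labels state, so the intervals rest on an uncertain depth. Scripts were tested on simulated reads.

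The members and lists were chosen with earlier results of these data known, as were the structural groups. Named are the 6 highest Mrpl and 6 highest Mrps genes, the 8 members with the largest ratio each way, Mrps18a, Mrps18b, Mrps18c, Mrps30, Mrps36 and the 3 highest genes of each other list. Others were chosen after their values were seen. One further marker list is not reported here.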

Additional observations from a re-analysis of the deposited data

How the results depend on the processing

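The 6 summary values of the members were recomputed under 16 alternatives, 88 values in all. Of these, 82 stayed within 1.5 times the main count or 0.2 of the main median. That 0.2 is wider than the difference of -0.14 between the subunit medians, so the count cannot show that this difference held. Centred on genes of like level, the member median moved from -0.32 to -0.18 and the Mrps median from -0.23 to -0.10. The median of the members was below 0 under all alternatives run, and that of Mrpl genes was below that of Mrps genes under each that gives medians. With calls where the higher level exceeds the lower by 25%, 38 members were lower, against 26.5% of all genes compared. With calls at 2-fold, 3 were lower, against 2.79%, and 0 higher, against 5.99%. Centred on genes of like length and GC content, 13 were lower. With a pseudocount of 1 FPKM, or centred on genes of like level, 0 were higher, since Mrps2 was no longer past 1.5-fold. No direction past 1.5-fold was reversed. Of 214 values of 27 named members, 33 moved past their counting interval, or by over 0.2 where none could be had, and all 33 under centring or scaling. Leaving out Mrpl52 or members that overlap other genes was chosen after seeing the data. With 1 pool per genotype no replicate could be left out, and no paired analysis was possible because there are no replicates to pair.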
